A study of Mus musculus with 2 samples.

Results

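The 10 acute phase response genes described here are Saa1, Saa2, Saa4, Orm1, Orm2, Lcn2, Steap4, Serpina3n, Lbp and the interleukin-1 (IL-1) receptor gene Il1r1. They were chosen by symbol from the 15348 genes of the deposited liver table, and all 10 were found there. The treated library came from female NOG-TKm30 mice, 16 weeks old, given OTD, or ortho-toluidine, which is an aromatic amine. The dose was 0.6% during the first week and 0.3% during the 3 weeks that followed, and the control library came from mice of the same kind given 0%. NOG mice are immunodeficient and lack mature lymphocytes, and the mice of both groups carry a cDNA of the herpes simplex virus thymidine kinase mutant clone 30, driven by enhancer and promoter sequence of transthyretin, a gene active in hepatocytes. Samples of 5 OTD mice were pooled into 1 library and those of 3 control mice into the other, so neither group had replicates and the spread between mice or pools was not measured. The strain label names NOG-TKm30, whereas the treatment protocol names C57BL mice, and the sources used here give neither the vehicle nor the route of OTD.

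The acute phase response is the change in plasma protein synthesis by which the liver answers infection and injury. Macrophages and other cells release IL-1, tumour necrosis factor and interleukin-6 (IL-6), which reach hepatocytes through receptors such as Il1r1 and Il6ra. NF-kappaB, C/EBP and STAT3 then bind the promoters of acute phase genes, while albumin and other abundant plasma proteins are made less. Serum amyloid A genes are among the most strongly inducible liver genes in mice during inflammation.

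The OTD library held 14685193 reads and the control library 13569189, recovered from the deposited values. Levels are reads on the authors' scale, close to CPM and called scaled CPM here, with sums of 980948 in OTD and 1019422 in control, and 3 reads corresponded to a level of 0.200 in OTD and 0.225 in control. Ratios are OTD over control, each with a 95% interval (exact Clopper-Pearson, from how the reads divide between the libraries) that covers counting error only. No p-value is given, because a test over samples needs more than 1 library per group. A gene with a mean level of at least 10 over both libraries was called measured (7602 genes), and it was counted as higher or lower at 1.5-fold, on log2 ratios with a pseudocount of 1. The hepatocyte genes marked both libraries as liver, with albumin (Alb) at 69694 in OTD and 81661 in control. The ribosomal RNA precursor Rn45s took 2.66% of OTD reads and 1.47% of control reads, and a common total without it raised every ratio 1.05 times. In bulk liver, fewer cells of a type and less RNA per cell cannot be told apart.

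The 10 genes lay on both sides of a ratio of 1. Il1r1 was the single member at least 1.5-fold lower, and Lcn2 the single member at least 1.5-fold higher, at a mean level under 10. The other 8 lay within 1.5-fold. The background for these counts over all listed genes was 1.24% lower and 2.5% higher by that fold. Among measured genes it was 0.908% lower and 1.51% higher, and of the 9 measured members 1 was lower and 0 were higher. After scaling both libraries to the same total, 153 measured genes were higher and 45 lower, against 115 higher and 69 lower on the deposited scale. At a laxer 5/4-fold, 2 measured members were higher (Saa1 and Orm2) and 2 lower (Il1r1 and Saa4), beside 7.1% of measured genes higher and 4.95% lower. The log2 ratio was above 0 for 6 of the 10 and below 0 for 4. Its median was 0.11 over all 10, against 0.0045 over all listed genes. Over the 9 measured members the median was 0.051, against −0.0063 over all measured genes. The counting interval lay above a ratio of 1 for 4 genes (Saa1, Orm1, Orm2 and Lcn2), below 1 for 4 (Saa4, Serpina3n, Lbp and Il1r1) and across 1 for Saa2 and Steap4. At many reads such an interval leaves out 1 for small differences, as for Serpina3n at 0.940. The same count over all measured genes was not made, so these counts are not a result about the members. After scaling to the same total, which raised every ratio 1.04 times, the interval of Steap4 lay above 1 and that of Serpina3n across 1. The summed level of the 10 genes was 1643 in OTD and 1699 in control, a ratio of 0.967 (0.949 to 0.984).

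**Figure D1:**
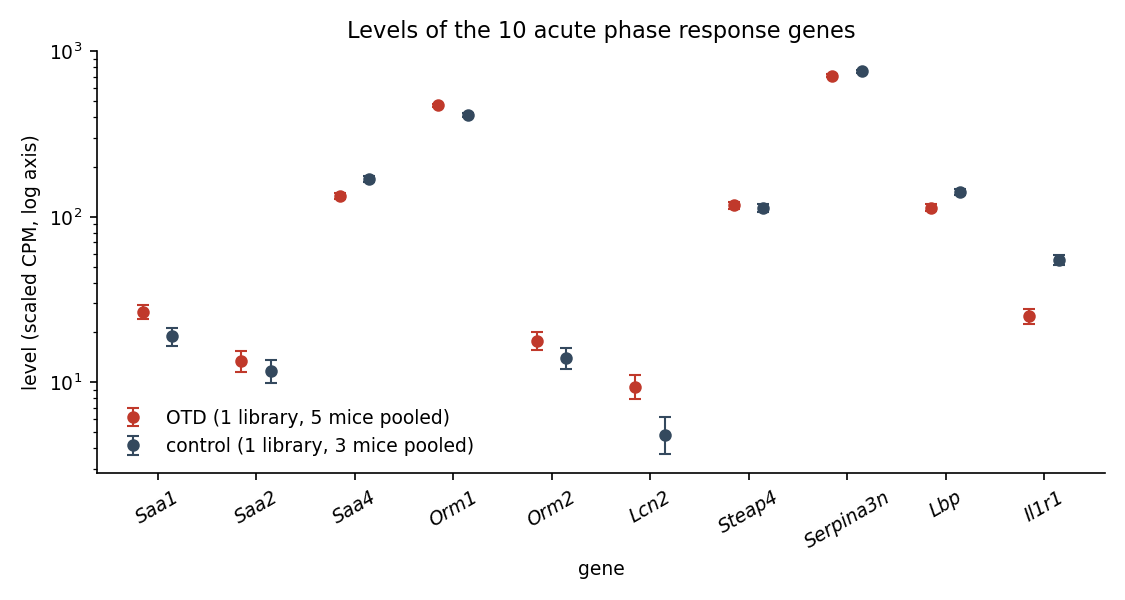
Level of each acute phase response gene (scaled CPM, log axis) in the OTD library (red, left) and the control library (dark, right); each point is 1 pooled library and the bars are 95% exact Poisson intervals, which cover counting error only. Il1r1 stood at 25.0 in OTD and 55.0 in control, and Lcn2 at 9.42 in OTD and 4.81 in control, while the 2 points of each of the other 8 genes lie close together.

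Levels divided by the length of the longest coding transcript allow the genes to be ordered. On this level per kilobase, Orm1 was highest, at 610.5 in OTD and 532.6 in control, followed by Serpina3n at 345.2 in OTD and 367.2 in control. Il1r1 was lowest in OTD at 4.29 per kilobase, against 9.45 in control. In control the lowest was Lcn2 at 5.25 per kilobase, against 10.3 in OTD, so Lcn2 and Il1r1 exchanged places in the order between the libraries. Saa1 and Saa2, which in inflamed mouse liver become abundant transcripts, stood at 43.8 and 20.5 per kilobase in OTD and at 31.1 and 18.0 in control.

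Saa1 and Saa2 encode the serum amyloid A proteins that circulate on high-density lipoprotein during inflammation. Saa1 had a level of 26.7 in OTD (399 reads) and 18.9 in control (252 reads), a ratio of 1.41 (1.20 to 1.65). Of the measured genes, 2.76% had a higher log2 ratio than Saa1. Saa2 had a level of 13.4 in OTD (200 reads) and 11.7 in control (156 reads), a ratio of 1.14 (0.920 to 1.41). A difference of Saa2 was therefore not detectable at this depth, and the intervals of the Saa1 and Saa2 ratios overlap. Both are protein-coding genes on chromosome 7 of GRCm38 (the mm10 assembly, annotation GENCODE M21), Saa1 at 46740497 to 46742980 on the minus strand and Saa2 at 46751790 to 46754313 on the plus strand. Their coding transcripts were 87.3% identical over 655 aligned columns, and 14.8% of the 50-base stretches of the Saa1 transcript also occur in transcripts of other genes, mostly Saa2, so reads can be split between the genes. Their sum, which such a split does not affect, was 40.0 in OTD and 30.7 in control, a ratio of 1.31 (1.15 to 1.48).

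The promoter windows of Saa1 and Saa2 (250 bases before the start to 50 after it, from RefSeq on GRCm38.p6) are shown because both genes had ratios above 1 and share their upstream sequence. They lie at chr7:46742931-46743230 on the minus strand for Saa1 and chr7:46751583-46751882 on the plus strand for Saa2, and are printed in the direction of the gene. Aligned, they were identical in 287 of 301 columns (95.3%). Capitals mark matches to the motifs searched on both strands, which here were the C/EBP letters TTNNGCAA.
Saa1: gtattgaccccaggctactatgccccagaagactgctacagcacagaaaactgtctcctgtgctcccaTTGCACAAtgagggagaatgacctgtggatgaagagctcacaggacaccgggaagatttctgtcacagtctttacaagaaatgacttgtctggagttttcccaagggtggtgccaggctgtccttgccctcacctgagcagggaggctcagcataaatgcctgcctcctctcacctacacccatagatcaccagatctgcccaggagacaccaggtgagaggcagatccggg
Saa2: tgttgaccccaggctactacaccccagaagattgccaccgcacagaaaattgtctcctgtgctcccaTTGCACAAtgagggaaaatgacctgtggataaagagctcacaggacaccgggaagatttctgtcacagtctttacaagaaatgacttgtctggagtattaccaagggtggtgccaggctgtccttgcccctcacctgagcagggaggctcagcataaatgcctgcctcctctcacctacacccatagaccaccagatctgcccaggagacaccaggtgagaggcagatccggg
Each window held 1 match, of the same letters on the other strand, beginning at position −182 from the start in Saa1 and −183 in Saa2. The C/EBP letters occur in 10.8% of 32851 RefSeq promoter windows of this length. The NF-kappaB consensus, the STAT letters TTCNNNGAA and the glucocorticoid receptor letters (GNACA, any 3 bases, TGTNC) had no match in these windows, and no match says only that these letters are not there. The share of all windows with a match was 8.46% for NF-kappaB, 8.30% for STAT and 0.475% for the glucocorticoid receptor letters. A match is a match of letters, not a binding site.

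Saa4 encodes the serum amyloid A protein that is made constitutively rather than induced. It stood at 134.0 in OTD (2006 reads) and 169.5 in control (2256 reads), a ratio of 0.791 (0.744 to 0.840). Saa4 lay on the other side of 1 from Saa1. It neighbours Saa1, at 46727998 to 46732603 on the minus strand of chromosome 7, with 7893 bases between them. Of the measured genes, 4.37% had a lower log2 ratio than Saa4. Its coding transcript shared 0.979% of its 50-base stretches with other genes. The Saa4 promoter window held 2 matches to the C/EBP letters, beginning at positions −245 (other strand) and −52. Saa3, the serum amyloid A gene that macrophages and other non-hepatocyte cells make on inflammation, stood at 1.94 in OTD (29 reads) and 2.33 in control (31 reads), a ratio of 0.832 (0.484 to 1.43), so this depth could not show a difference. The 4 Saa genes summed to 175.9 in OTD and 202.5 in control, a ratio of 0.869 (0.823 to 0.917), and Saa4 made up most of both sums.

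Orm1 and Orm2 encode alpha-1-acid glycoprotein, a plasma carrier of basic and neutral drugs. Orm1 had a level of 473.1 in OTD and 412.8 in control, a ratio of 1.15 (1.11 to 1.19). Orm2 had a level of 17.8 in OTD (266 reads) and 14.0 in control (186 reads), a ratio of 1.27 (1.05 to 1.54). Both intervals lay above 1 and overlap each other, and 16.0% of measured genes had a log2 ratio above that of Orm1 and 6.92% above that of Orm2. The third gene of the cluster, Orm3, stood at 8.48 in OTD (127 reads) and 4.28 in control (57 reads), a ratio of 1.98 (1.44 to 2.76). All 3 Orm ratios were above 1, and the lowest-level gene had the highest ratio. Their sum was 499.4 in OTD and 431.0 in control, a ratio of 1.16 (1.12 to 1.20), nearly all of it Orm1. The genes lie on the plus strand of chromosome 4, Orm1 at 63344560 to 63348163 and Orm2 at 63362449 to 63365878. The coding transcripts of Orm1 and Orm2, both of 775 bases, were 91.0% identical, with 20.4% of the 50-base stretches of Orm1 and 22.7% of those of Orm2 found in other genes, so reads can be split between them, an uncertainty that the interval of Orm2, the lower of the pair, does not cover. The Orm2 promoter window held 1 C/EBP match, at position −120. Orm1 had no entry among the promoter windows.

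Lcn2 encodes lipocalin-2, which binds bacterial siderophores and withholds iron from bacteria; hepatocytes and neutrophils both make it. It stood at 9.42 in OTD (141 reads) and 4.81 in control (64 reads), a ratio of 1.96 (1.45 to 2.68). This was the highest ratio among the 10 genes and rested on the fewest reads. Among the 4354 genes with a mean level of at least 1 and under 10, 4.87% were at least 1.5-fold higher in OTD, 2.07% were lower by that fold, and 1.17% had a log2 ratio above that of Lcn2. Its transcript shared 0 of its 50-base stretches with other genes. Of 17 monocyte and neutrophil markers, 14 were among the listed genes, and their summed level was 45.8 in OTD and 40.6 in control, a ratio of 1.13 (1.01 to 1.27), of which the lysozyme gene Lyz2 made up 37.4 in OTD and 33.4 in control. Without a filter on level, 9 of the 14 were above 0 and 5 below, with 2 at least 1.5-fold higher and 0 lower, beside 2.5% of all listed genes higher and 1.24% lower. The 2 were S100a8 and the granulocyte colony-stimulating factor receptor gene Csf3r, named after its value was seen, which had 18 reads in OTD and 6 in control, a ratio of 2.67 (1.01 to 8.21). The granule and calprotectin genes that define neutrophils were near 0, with S100a8 at 11 reads in OTD and 2 in control (ratio 4.89, 1.07 to 45.4), S100a9 at 8 in OTD and 10 in control, and Camp, named after its value was seen, at 5 in OTD and 0 in control. The 5 below 0 were S100a9, Itgam, Ccr2, Ly6c2 and Mmp9, all but S100a9 named after their values were seen. Itgam had 17 reads in OTD and 28 in control, a ratio of 0.540 (0.277 to 1.02). Of the 14, the number listed at 0 was 0 in OTD and 2 in control. The part of these cells in the Lcn2 ratio was not tested.

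The Lcn2 promoter window, shown because Lcn2 was the member with the highest ratio, lies at chr2:32387690-32387989 on the minus strand of GRCm38.p6, and the gene at 32384633 to 32388252 of chromosome 2. Capitals mark the single match, to the C/EBP letters on the other strand, beginning at position −216.
Lcn2: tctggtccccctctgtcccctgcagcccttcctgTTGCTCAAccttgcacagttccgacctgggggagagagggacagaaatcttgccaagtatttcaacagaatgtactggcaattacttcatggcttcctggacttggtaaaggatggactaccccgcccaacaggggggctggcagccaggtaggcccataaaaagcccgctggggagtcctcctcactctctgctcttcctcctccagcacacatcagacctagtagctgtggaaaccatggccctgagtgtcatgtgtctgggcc
The letters of the NF-kappaB consensus, of STAT and of the glucocorticoid receptor were not found in it. The measured genes that handle siderophores and iron lay within 1.5-fold. Of 15 genes on that list, 9 were measured, of which Lcn2 is not one, and 0 were past 1.5-fold in either direction, with 3 above 0, 6 below and a median log2 ratio of −0.11. Most of all measured genes lay within that fold too, with 1.51% higher and 0.908% lower by it, and 51.6% were below 0. Hamp, which encodes the iron hormone hepcidin and is itself induced by IL-6, stood at 581.9 in OTD and 742.3 in control, a ratio of 0.784 (0.762 to 0.807). The zinc and iron importer gene Slc39a14, another IL-6-inducible gene, stood at 160.8 in OTD and 197.7 in control, a ratio of 0.813 (0.769 to 0.860). The ferritin light chain gene Ftl1, the most abundant on the list, had a ratio of 1.04 (1.03 to 1.06).

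Steap4 encodes a metalloreductase of the six-transmembrane epithelial antigen of prostate family, which in mouse liver is regulated by IL-6 signalling and C/EBP-alpha. It stood at 117.1 in OTD (1753 reads) and 113.0 in control (1504 reads), a ratio of 1.04 (0.967 to 1.11). The interval was narrower than that of Saa2, which rested on fewer reads. After scaling to the same total the ratio was 1.08 (1.00 to 1.15), with the lower bound just above 1. The gene lies at 7960457 to 7982213 on the plus strand of chromosome 5. Its promoter window, at chr5:7960222-7960521 on the plus strand, is shown because it held the most matches of the 9 windows of 8 members, namely 2 to the NF-kappaB consensus, 1 to STAT and 1 to C/EBP, none of which overlap, in a gene whose interval spanned 1.
Steap4: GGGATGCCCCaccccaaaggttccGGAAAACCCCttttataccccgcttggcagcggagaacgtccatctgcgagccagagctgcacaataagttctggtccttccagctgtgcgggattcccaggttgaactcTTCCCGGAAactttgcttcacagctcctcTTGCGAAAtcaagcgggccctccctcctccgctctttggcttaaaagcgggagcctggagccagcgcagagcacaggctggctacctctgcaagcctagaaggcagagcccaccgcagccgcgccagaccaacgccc
In it the matches, in capitals, begin at positions −250 (NF-kappaB), −226 (NF-kappaB, other strand), −116 (STAT) and −87 (C/EBP, other strand).

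Serpina3n encodes a serine protease inhibitor of the mouse alpha-1-antichymotrypsin cluster that blocks granzyme B and is secreted by hepatocytes on inflammation. It stood at 712.5 in OTD and 757.8 in control, a ratio of 0.940 (0.915 to 0.966), with 31.8% of measured genes below it. After scaling to the same total the ratio was 0.977 (0.951 to 1.00), an interval that spans 1. Its transcript shared 6.90% of its 50-base stretches with other genes, most of them of the same cluster. Of all measured genes 51.6% were below 0, with 1.51% at least 1.5-fold higher and 0.908% lower by that fold. Of 11 genes of the cluster 5 were measured, 1 above 0 and 4 below, with a median log2 ratio of −0.10 and 0 past 1.5-fold. The most abundant of them, Serpina3k, had a ratio of 0.932 (0.924 to 0.939), and Serpina3m had a ratio of 1.04 (1.01 to 1.08), named after its value was seen. The ratio of Serpina3n was thus close to that of Serpina3k. The gene lies on chromosome 12 at 104406729 to 104414329 on the plus strand, and its promoter window held the only glucocorticoid receptor match of the 9 windows, at position −78.

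Lbp encodes the lipopolysaccharide-binding protein, which hands bacterial lipopolysaccharide to Cd14 and the Tlr4 receptor. It stood at 113.8 in OTD (1704 reads) and 141.8 in control (1887 reads), a ratio of 0.803 (0.752 to 0.858), and 5.31% of measured genes had a lower log2 ratio. Lbp and Saa4 had nearly the same ratio and overlapping intervals. The gene lies on chromosome 2 at 158306493 to 158332852 on the plus strand and had no entry among the promoter windows. Its partner Cd14 stood at 5.28 in OTD (79 reads) and 4.66 in control (62 reads), a ratio of 1.13 (0.802 to 1.61), which was not detectable as a difference at this depth. Tlr4, named after its value was seen, had a ratio of 0.689 (0.496 to 0.955), from 69 reads in OTD and 89 in control. Ly96, the Tlr4 co-receptor gene, also named after its value was seen, had a ratio of 2.39 (1.24 to 4.93), from 35 reads in OTD and 13 in control. The genes of the lipopolysaccharide receptor complex thus lay on both sides of 1, at low read numbers.

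Il1r1 encodes the signalling receptor of IL-1-alpha and IL-1-beta. It stood at 25.0 in OTD (374 reads) and 55.0 in control (732 reads), a ratio of 0.454 (0.400 to 0.515), or 2.20-fold lower (1.94 to 2.50). Of 7602 measured genes, 10 had a lower log2 ratio, and 0.21% were at least 2-fold lower. The gene spans chromosome 1 from 40225080 to 40317257 on the plus strand, and its transcript shared 0 of its 50-base stretches with other genes, although a gene model, Gm38070, overlaps it on the same strand. Il1r1 is made by hepatocytes and by endothelial and stromal cells. The summed level of the 15 sinusoidal endothelial markers was 842.9 in OTD and 869.4 in control, a ratio of 0.970 (0.945 to 0.994), and that of the 14 stellate cell markers was 811.5 in OTD and 842.8 in control, a ratio of 0.963 (0.938 to 0.988). The 12 hepatocyte genes summed to a ratio of 0.887 (0.885 to 0.889). In none of these lists was any measured member at least 1.5-fold lower, beside 0.908% of all measured genes. The part of these cells in the Il1r1 ratio was not tested.

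Both promoter windows of Il1r1 are shown because Il1r1 was the member with the lowest ratio and the only one with 2 annotated starts among the windows. They lie on the plus strand, the upstream one at chr1:40224830-40225129 and the downstream one at chr1:40266336-40266635.
Il1r1 upstream: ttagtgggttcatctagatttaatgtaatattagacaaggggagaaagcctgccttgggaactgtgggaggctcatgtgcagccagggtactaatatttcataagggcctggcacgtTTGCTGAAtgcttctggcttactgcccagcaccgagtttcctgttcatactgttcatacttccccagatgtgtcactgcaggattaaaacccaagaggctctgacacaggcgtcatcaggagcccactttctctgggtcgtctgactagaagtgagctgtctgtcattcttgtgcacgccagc
Il1r1 downstream: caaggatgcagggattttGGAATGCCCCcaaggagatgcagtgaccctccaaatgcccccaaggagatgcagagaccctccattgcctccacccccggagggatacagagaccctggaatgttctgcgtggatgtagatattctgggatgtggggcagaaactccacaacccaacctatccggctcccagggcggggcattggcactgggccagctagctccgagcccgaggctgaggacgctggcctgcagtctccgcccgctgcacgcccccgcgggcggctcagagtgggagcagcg
The upstream window had 49.3% G and C and 1 match, to C/EBP on the other strand, at position −133. The downstream window had 63.3% G and C and 1 match, to the NF-kappaB consensus on the other strand, at position −232. The deposited table gives 1 value per gene, so the use of the 2 starts is not known here.

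**Figure D2:**
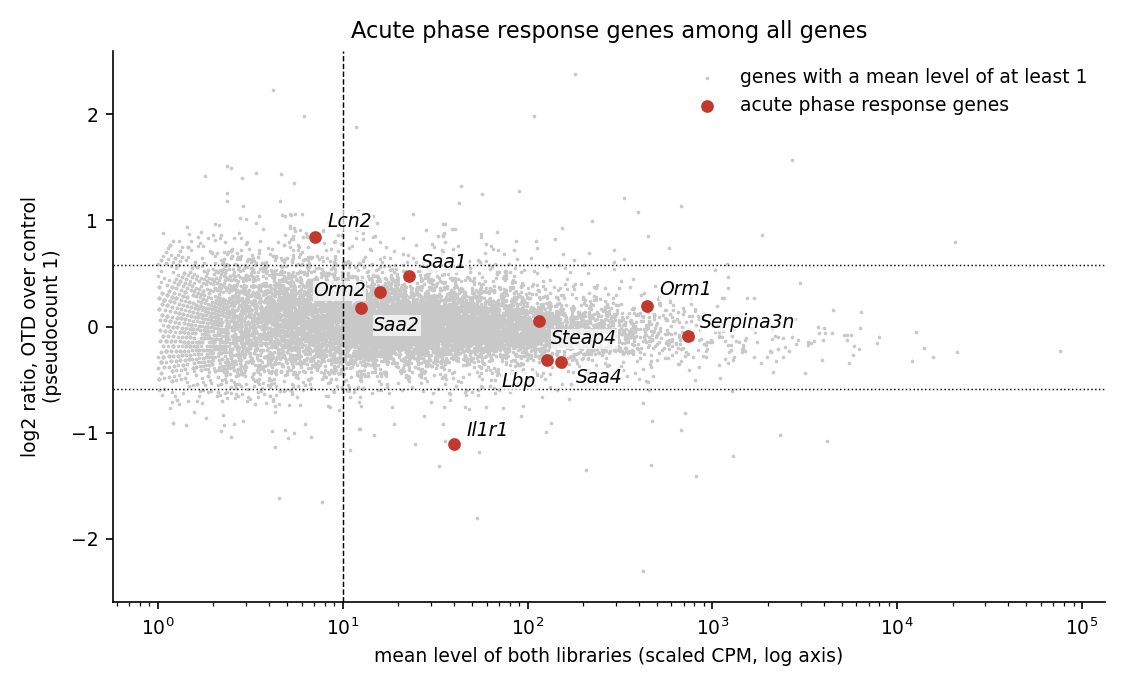
Log2 ratio of OTD over control (pseudocount 1) against the mean level of both libraries (scaled CPM, log axis) for 11953 genes with a mean level of at least 1 (grey; 3 more lie beyond the vertical axis) and the 10 acute phase response genes (red); dotted lines mark 1.5-fold and the dashed line a mean level of 10. Il1r1, at −1.11, lies below the grey band at its level, Lcn2, at 0.84, lies at the upper edge of the wide band of low genes, and the other 8 lie between the dotted lines.

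The other measured genes of the IL-1 pathway lay within 1.5-fold, as did most of all measured genes. Of those, 1.51% were higher and 0.908% lower by that fold, and 51.6% had a log2 ratio below 0. Of 27 genes for IL-1 and Toll-like receptor signalling 13 were measured, and Il1r1 was the only one past 1.5-fold, with 6 above 0, 7 below and a median log2 ratio of −0.013, which turned to 0.042 after scaling to the same total. Il1rap, the co-receptor that Il1r1 needs to signal, stood at 100.7 in OTD and 119.6 in control, a ratio of 0.842 (0.784 to 0.904). The adaptor gene Tirap, at 30.1 in OTD and 22.8 in control, had a ratio of 1.32 (1.14 to 1.53). Peli2, a ubiquitin ligase gene of the pathway, had a ratio of 0.850 (0.738 to 0.979), and Tab2, the most abundant of the list, of 0.924 (0.870 to 0.981). The ligands were at very low levels. Il1a had 59 reads in OTD and 34 in control, a ratio of 1.54 (0.995 to 2.43), and Il1b had 33 reads in OTD and 18 in control, a ratio of 1.63 (0.892 to 3.07), so neither difference was detectable at this depth. The receptor antagonist gene Il1rn had 24 reads in OTD and 40 in control, a ratio of 0.533 (0.308 to 0.907). Tnf had 1 read in OTD and 2 in control, and Il6 was not analysed here.

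Of 22 genes on the IL-6 and STAT3 list 12 were measured, 6 on each side of 0, and their median log2 ratio was 0.0021, or −0.014 when scaled to the same upper quartile. Past 1.5-fold, 3 were lower and 0 higher, beside 0.908% of all measured genes lower and 1.51% higher, and the 3 were all ligand-binding receptors. Il6ra, the IL-6 receptor, stood at 54.2 in OTD and 92.8 in control, a ratio of 0.584 (0.534 to 0.638). Lepr, the leptin receptor, stood at 52.1 in OTD and 81.2 in control, a ratio of 0.642 (0.584 to 0.704). Il22ra1, the interleukin-22 receptor, stood at 13.8 in OTD and 21.9 in control, a ratio of 0.630 (0.525 to 0.756). The receptor chains shared by IL-6-type cytokines had ratios close to 1, with Il6st, which encodes gp130, at 252.5 in OTD and 251.7 in control, a ratio of 1.00 (0.957 to 1.05), and Lifr, the most abundant of the list, at a ratio of 1.03 (0.993 to 1.06). Stat3 stood at 143.5 in OTD and 122.6 in control, a ratio of 1.17 whose interval lay above 1. Socs2, which growth hormone induces, had a ratio of 1.27 (1.09 to 1.48). Socs3, the feedback inhibitor that STAT3 induces, had 84 reads in OTD and 82 in control, a ratio of 0.911 whose interval spanned 1.

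**Figure D3:**
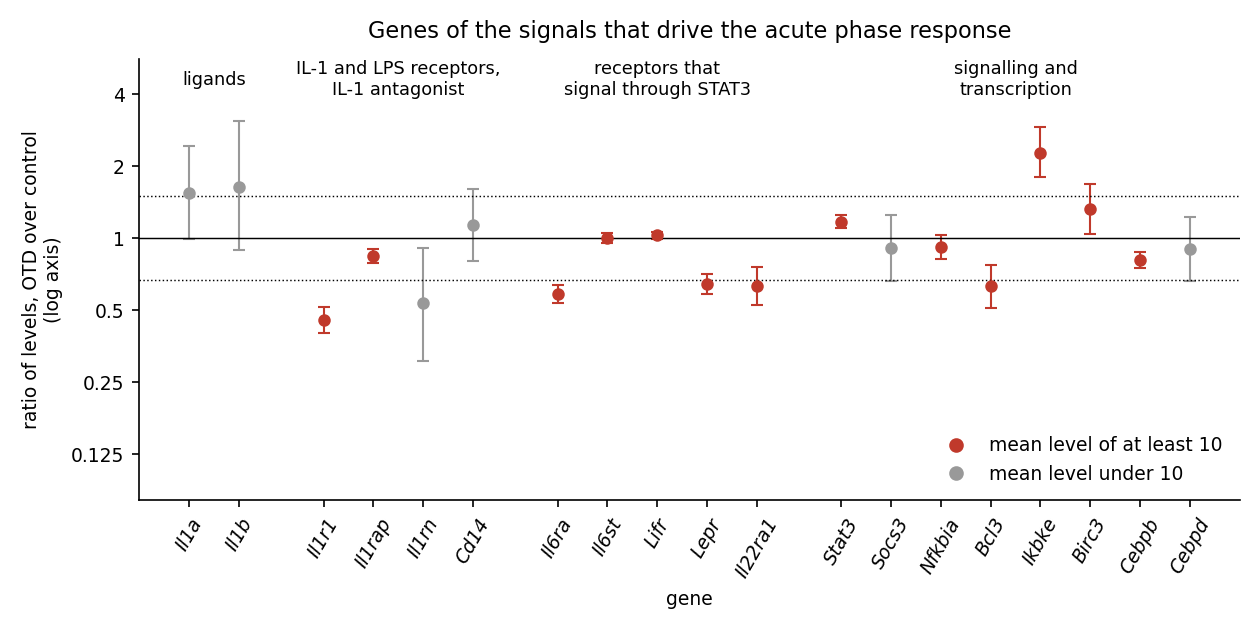
Ratio of levels, OTD over control (log axis), for genes of the signals that drive the acute phase response, with 95% exact Clopper-Pearson intervals that cover counting error only; dotted lines mark 1.5-fold, and grey points have a mean level under 10. Il1r1 at 0.454, Il1rn at 0.533 (grey), Il6ra at 0.584, Bcl3 at 0.628, Il22ra1 at 0.630 and Lepr at 0.642 lie below the lower line. Ikbke at 2.28 lies above the upper line, as do Il1a at 1.54 and Il1b at 1.63, both grey with intervals that span 1. Il6st at 1.00 and Lifr at 1.03 lie near 1.

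NF-kappaB genes lay on both sides of 1. Of 24 genes 14 were measured, 8 above 0 and 6 below, and their median log2 ratio was 0.15. Past that fold, 1 was higher and 1 lower, with the same background of 1.51% higher and 0.908% lower. Ikbke, a kinase gene of innate sensing, stood at 16.8 in OTD and 7.36 in control, a ratio of 2.28 (1.80 to 2.91), and the NF-kappaB cofactor gene Bcl3 at 11.1 in OTD and 17.7 in control, a ratio of 0.628 (0.512 to 0.769). The adhesion gene Vcam1 had a ratio of 0.718 (0.610 to 0.843), the apoptosis inhibitor gene Birc3 of 1.32 (1.04 to 1.68), the kinase gene Chuk, the most abundant, of 0.851 (0.796 to 0.910), and the inhibitor Nfkbia, which NF-kappaB itself induces, of 0.918 (0.821 to 1.03). Of 17 C/EBP and other hepatic transcription factors of the acute phase 15 were measured, 5 above 0 and 10 below, with a median of −0.15. The 10 became 9 after scaling to the same total and 8 on that scale without Rn45s. Of all measured genes 51.6% were below 0, or 2995 and 2688 of 7602 on those 2 scales. Cebpb, which IL-6 and IL-1 induce, had a ratio of 0.811 (0.752 to 0.873), and Cebpd, at 90 reads in OTD and 89 in control, of 0.899 (0.663 to 1.22). Foxa3 was the only one past 1.5-fold, at 35.1 in OTD and 60.9 in control, a ratio of 0.577 (0.516 to 0.644), while Hnf4a had 0.707 (0.688 to 0.725).

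Of 40 other positive acute phase genes (those induced by inflammation) 32 were measured, 6 above 0 and 26 below, and their median log2 ratio was −0.13. Past 1.5-fold, 0 were higher and 1 lower, beside 1.51% of all measured genes higher and 0.908% lower. Of all measured genes, 51.6% (3921 of 7602) were below 0. The count of 26 became 23 on the same-total scale, where 2995 of all 7602 measured genes were below 0, and 22 on that scale without Rn45s, where 2688 were. The 1 was Vnn1, a pantetheinase gene that PPAR-alpha also controls, at 15.2 in OTD and 34.0 in control, a ratio of 0.449 (0.381 to 0.527). Complement C3, the most abundant, had 10631 in OTD and 13290 in control, a ratio of 0.800 (0.795 to 0.805), and C4b had 0.742 (0.730 to 0.754). The angiotensinogen gene Agt had 0.767 (0.747 to 0.786).

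The classical plasma proteins of the acute phase had ratios near 1. Haptoglobin (Hp) had 1285 in OTD and 1318 in control, a ratio of 0.975 (0.955 to 0.995), whose log2 ratio of −0.037 turned to 0.019 after scaling to the same total. The 3 fibrinogen chains (Fga, Fgb and Fgg) summed to 11991 in OTD and 12850 in control, a ratio of 0.933 (0.927 to 0.939). After scaling without Rn45s the log2 ratio of Fgb, −0.062, turned to 0.011. Those of Fga (−0.082, then −0.0090) and Fgg (−0.17, then −0.099) stayed below 0. The pentraxins were on the other side of 1, with Apcs, serum amyloid P and the main acute phase pentraxin of mice, at 237.3 in OTD and 217.9 in control, a ratio of 1.09 (1.04 to 1.14), and Crp at 1.09 (1.04 to 1.14). These differences have no replicate check.

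Negative acute phase genes are those that the inflamed liver makes less of. Of 14 measured genes 1 was above 0 and 13 below, against 51.6% of all measured genes below 0. The median log2 ratio of the 14 was −0.14. Past 1.5-fold there were 0, beside 1.51% of all measured genes higher and 0.908% lower. The 13 became 10 after scaling to the same total, with 2995 of 7602 measured genes below 0, and 9 without Rn45s, with 2688 of 7602 below 0. Alb had a ratio of 0.853 (0.851 to 0.856), transferrin (Trf) of 0.847 (0.842 to 0.851) and protein C (Proc) of 0.850 (0.818 to 0.883). Transthyretin (Ttr), whose promoter drives the transgene, had 0.961 (0.950 to 0.972), and its log2 ratio of −0.058 turned to 0.016 after scaling without Rn45s. The medians of the positive and the negative list were thus both below 0 and nearly the same. The summed level of the positive list was 0.889 times that of control (0.886 to 0.891) and that of the negative list 0.870 times (0.868 to 0.872).

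Macrophages of the liver, the Kupffer cells, are a source of the cytokines that start the response. Of 16 Kupffer cell markers 11 were measured, 1 above 0 and 10 below (8 below on the same-total scale without Rn45s), with a median log2 ratio of −0.11 and 0 past 1.5-fold. Of all measured genes 51.6% were below 0, or 2688 of 7602 on the scale without Rn45s. Past 1.5-fold, 1.51% of all measured genes were higher and 0.908% lower. The hepatocyte list, with 9 of 12 measured genes below 0, had a similar median of −0.10. The summed level of the 16 Kupffer cell markers was 789.8 in OTD and 844.4 in control, a ratio of 0.935 (0.911 to 0.960). Clec4f, which in mice marks resident Kupffer cells, stood at 121.6 in OTD and 131.7 in control, a ratio of 0.924 (0.865 to 0.987), and Adgre1, which encodes F4/80, had a ratio of 0.907 (0.771 to 1.07). The list included the iron exporter gene Slc40a1, its most abundant member, which hepatocytes also express. The part of these cells in the ratios of the 10 genes was not tested.

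**Figure D4:**
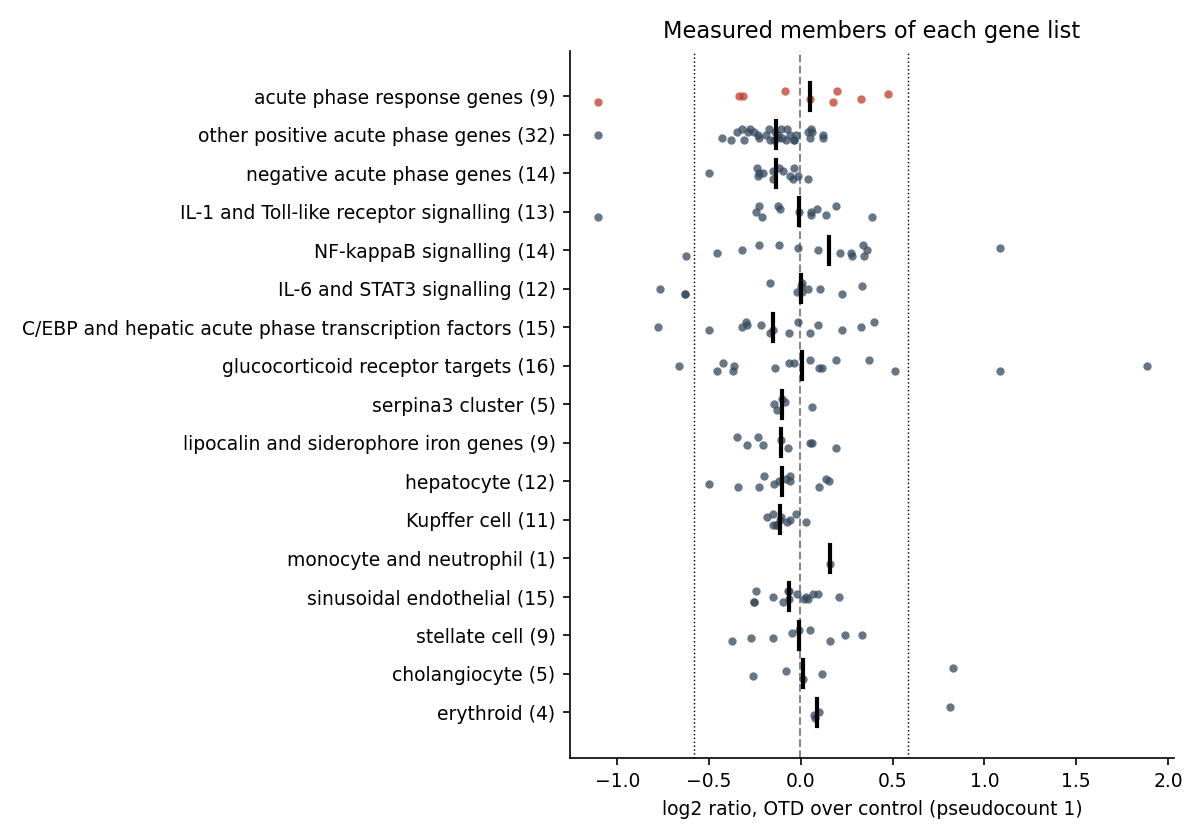
Log2 ratio of OTD over control (pseudocount 1) of each measured gene (points) by gene list, with the number measured in brackets; black bars are list medians, the dashed line is the median of all measured genes (−0.0063) and dotted lines mark 1.5-fold. The 9 measured acute phase response genes (red) spread from −1.11 to 0.47, while the other positive acute phase genes and the negative ones lie together just below 0, with medians of −0.13 and −0.14.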

How the data were processed

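Liver RNA was measured in 1 pooled library of 5 OTD mice and 1 of 3 control mice, made from 200 ng of total RNA each after ribosomal RNA depletion with a directional kit, per the labels' protocols. The deposited table holds 1 normalized signal per gene symbol and library, as made by the authors. The mm10 build and 4 tools (edgeR, RSEM, Bowtie2 and Trimmomatic 0.38) are named without role or order, per the submitters' processing notes. The annotation, the gene filter and whether counting used strand are not stated there. Divided by the smallest value above 0, 100% of the values in each column were whole to within 1e-06, and these whole numbers were taken as reads. With 1 library per group, no residual degree of freedom was left, so no count test could be run on them.

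The words Ctrl and OTD in the column names gave each column its group; the word Wild in both is not explained in the labels. Log2 ratios had a pseudocount of 1 added to each level, so differences of low genes are understated. Intervals were exact Clopper-Pearson (ratios) and exact Poisson (levels). Values were computed with scipy 1.17.1, pandas 2.3.3 and numpy 2.4.6 in Python 3.11.15, alignments with biopython 1.88 and plots with matplotlib 3.10.9. The code for calls and intervals was run on simulated reads that had counting error only, which is the error the intervals assume. That run says nothing of the spread between mice or pools.

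The 10 members and 17 other lists were chosen with earlier results of these data known. Named genes were the members, a set of cytokine, receptor and plasma protein genes, and for each list up to 4 measured genes of largest absolute log2 ratio and its most abundant gene. Positions and transcripts came from GENCODE M21 (GRCm38), which held 14732 of 15348 symbols. Promoter windows came from RefSeq on GRCm38.p6 and matched 8 of 10 members. Alternatives were pseudocounts of 0.5 and 10, 4 other scalings, mean levels of at least 50 or no filter, and folds of 1.25 and 2; scaling without Rn45s was added after seeing the data.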

Additional observations from a re-analysis of the deposited data

How the results depend on the processing

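Of 60 log2 ratios of single members under the alternatives, 54 stayed within the counting interval, and none of the 10 members changed sign. A change of pseudocount alone cannot change a sign. The log2 ratio of Il1r1 ranged from −1.12 to −0.89 and that of Lcn2 from 0.39 to 0.91. With a pseudocount of 10, Lcn2 stood at 0.39, short of 1.5-fold, and Il1r1 at −0.89, still past it. At a mean level of at least 50, 0 members were 1.5-fold lower (Il1r1 has a mean under 50), the members' median turned to −0.089, the erythroid median was 0.45, and 43 genes in all were higher and 30 lower. Without a filter 1 member was higher (Lcn2), 383 genes were higher and 190 lower, and the serpina3 median was −0.13. At 2-fold 16 genes were higher and 16 lower, with Il1r1 still lower; at 5/4-fold 2 members were higher and 2 lower, against 540 genes higher and 376 lower. A pseudocount of 10 gave 58 higher and 35 lower and a serpina3 median of −0.088. Scaling to the same total gave 45 lower genes and medians of −0.082 for negative acute phase, −0.047 for serpina3 and −0.046 for hepatocyte genes, and the upper quartile gave −0.12 for both serpina3 and hepatocyte genes. Without Rn45s there were 43 lower genes, with medians of −0.065 (negative acute phase), −0.029 (serpina3), −0.034 (lipocalin and iron), −0.029 (hepatocyte) and 0.061 (stellate cell). By construction, the filters changed which genes entered, the folds moved the threshold, the larger pseudocount shrank the log2 ratios, and each scaling multiplied every ratio by 1 factor (1.04 for the same total, 1.05 without Rn45s). No paired analysis was possible because each group had 1 library. Pooling and the single library per group limit every comparison, and at fewer than about 100 reads depth limits those of the cytokine genes.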

Other observations

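Glucocorticoids act with IL-1 and IL-6 on acute phase genes, and genes that the glucocorticoid receptor induces lay on both sides of 1. Of 18 such genes 16 were measured, 8 on each side of 0, and their median log2 ratio was 0.0063, or −0.0099 when scaled to the same upper quartile. Past 1.5-fold, 2 were higher and 1 lower, beside 1.51% of all measured genes higher and 0.908% lower. Ddit4, an inhibitor of mTORC1, stood at 19.0 in OTD and 4.43 in control, a ratio of 4.29 (3.24 to 5.79), and Igfbp1, a binding protein of insulin-like growth factors, at 538.4 in OTD and 253.4 in control, a ratio of 2.12 (2.04 to 2.21). The mRNA decay factor Zfp36, which limits cytokine transcripts, had 81.0 in OTD and 56.4 in control, a ratio of 1.43 (1.31 to 1.57). On the other side, Klf9 had 92.6 in OTD and 147.6 in control, a ratio of 0.628 (0.586 to 0.673), while Pck1, the most abundant, had 0.956 (0.945 to 0.967). The receptor gene itself, Nr3c1, named after its value was seen, had a ratio of 1.04 (0.972 to 1.10).

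Of the remaining cell type lists, the hepatocyte list had a median log2 ratio of −0.10 over 12 measured genes, the sinusoidal endothelial list −0.063 over 15 (0.0092 on the same-total scale without Rn45s), the stellate cell list −0.012 over 9, the cholangiocyte list 0.012 over 5 (−0.0032 when scaled to the same upper quartile) and the erythroid list 0.087 over 4. Past 1.5-fold, 1 measured cholangiocyte gene and 1 erythroid gene were higher, beside 1.51% of all measured genes. The cholangiocyte gene Prom1 stood at 16.8 in OTD and 9.02 in control, a ratio of 1.86 (1.49 to 2.33). The alpha-globin gene Hba-a2 stood at 142.2 in OTD and 80.6 in control, a ratio of 1.76 (1.64 to 1.90). The more abundant alpha-globin gene Hba-a1 stood at 211.1 in OTD and 197.4 in control, a ratio of 1.07 (1.02 to 1.13). The other measured erythroid genes, Hbb-bt at 1.05 (0.869 to 1.28) and Alas2 at 1.06 (0.868 to 1.29), had intervals that span 1. Whether reads were split between Hba-a1 and Hba-a2 was not tested. The lymphoid list, with 0 measured genes, had 3 of its 17 genes in the table.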
